A study of Homo sapiens with 3 samples.

Results

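Cluster 13 is the last of the 14 clusters that the authors numbered in their single-cell annotation of CAMA-1 breast cancer spheroids, and it was taken here by its cluster number, 13 or higher. It held 108 of 19237 annotated cells (0.561%), no cluster had a higher number, and 106 of the 108 were ribociclib-resistant cells. These 106 are described against the other 13743 annotated resistant cells. CAMA-1 is an established luminal, estrogen receptor-positive breast cancer line. The resistant lineage had been selected by long growth in ribociclib, an inhibitor of the kinases CDK4 and CDK6, and carried the red fluorescent transgene mCherry, while the sensitive lineage carried the yellow mVenus. Spheroids were started with sensitive cells alone, resistant cells alone or equal parts of both, and all were given 1 µM ribociclib in DMSO for 11 days, so that no untreated cells enter these comparisons. The cells were frozen, thawed and sequenced as 1 droplet library of 3′ ends per condition. With 1 library per condition, and clusters that were made from the same genes, every difference between cluster 13 and other cells is a description with no test.

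By the authors' numbering cluster 13 was the smallest of all annotated clusters, and the next in size, clusters 11 and 12, held 183 and 185 cells. Among resistant cells alone it was not the rarest, because clusters 12, 4, 8, 7 and 3, which held mostly sensitive cells, had 2, 11, 24, 38 and 96 resistant cells. Cluster 13 made up 0.874% of the 6292 resistant cells in coculture (55 cells, exact binomial 95% interval 0.659 to 1.14%) and 0.675% of the 7557 in resistant monoculture (51 cells, 0.503 to 0.886%). The intervals, which cover counting error only, overlap. The 2 sensitive members, 1 from sensitive monoculture and 1 from coculture, were left out of all sums. Both were in G1.

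The cells of cluster 13 were close in depth to the rest. The median member had 34684.5 UMIs (unique molecular identifiers, each a counted RNA molecule) and 4900.5 genes, against 33185 UMIs and 4845 genes in other resistant cells. The mitochondrial share had a median of 16.9% against 15.3%. No member had a doublet score above 0.25 (0 of 106, exact interval up to 3.42%), whereas 3.78% of the other resistant cells did. The scores were made anew on all barcodes within the authors' gene, UMI and mitochondrial limits, annotated or not. The authors state that they had taken predicted doublets out of their cells with the same tool and limit. In monoculture 33 of 51 members had an mCherry UMI, against 72.9% of the other resistant cells. In coculture the annotated lineage went wholly with the transgene, with mCherry in all resistant and 0 of 2059 sensitive cells, so that it is no separate check of the members' lineage. No mVenus UMI was seen in any of the 106 members or the 13743 other resistant cells. The resistant cells of the 2 libraries shared 10 cell barcodes, and none of them belonged to cluster 13.

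NF-kappaB is a family of transcription factors that inhibitor proteins hold in the cytoplasm until a signal such as the cytokine TNF frees them. Its known targets include chemokines, adhesion molecules, its own subunits and its own inhibitor. Class I MHC molecules display peptides on the cell surface to T cells. Proteasome subunits cut the peptides, the TAP transporter carries them into the endoplasmic reticulum, and there they are loaded on HLA heavy chains bound to beta-2-microglobulin. Interferons raise many antiviral genes and this display machinery together. CDK4 and CDK6 drive cells from G1 into S phase, the step that ribociclib blocks.

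UMIs were summed over cells and expressed as CPM, a gene's UMIs per 1000000 UMIs of the set, and genes were compared by the log2 ratio of CPM + 1. Of 13155 genes with at least 50 UMIs over both sets, 338 (2.57%) were past 2-fold higher in cluster 13 and 298 (2.27%) past 2-fold lower. The median of all genes was 0.02. When G1 cells were compared with G1 cells, 294 of 12482 genes (2.36%) were past 2-fold higher and 82 (0.657%) lower. In coculture 466 of 12421 genes (3.75%) were past 2-fold higher and 454 (3.66%) lower, and in monoculture 348 of 12588 (2.76%) and 493 (3.92%). Of the 12373 genes counted in both libraries, 180 (1.45%) were past 2-fold higher in each of them. That was 39.6% of the 455 higher in coculture and 54.5% of the 330 higher in monoculture. A further 224 (1.81%) were lower in each, 49.3% of the 454 lower in coculture and 45.4% of the 493 lower in monoculture.

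The 15 genes with the highest ratios at a mean of 50 CPM or more were IGFL1, IL32, S100A9, LTB, S100A8, IRF1, C15orf48, DHRS2, HMOX1, ATP1B1, EFNA1, SRCAP, KRT81, B2M and NFKBIA. The 10 highest at 10 to 50 CPM were CXCL8, CCL2, KRT16, CHI3L2, TNF, ICAM1, GAL, PLAAT4, GDF15 and TNFAIP2. All 25 were past 2-fold higher in each library and also among G1 cells. They were chosen by their ratios over these same cells, so neither this nor the counts per cell that follow are a separate check. The median member had UMIs of 11 of the first 15 genes (range 6 to 15), and the median other resistant cell of 5 (0 to 14). After every cell was thinned to 5000 UMIs these medians were 6 and 2.

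**Figure D1:**
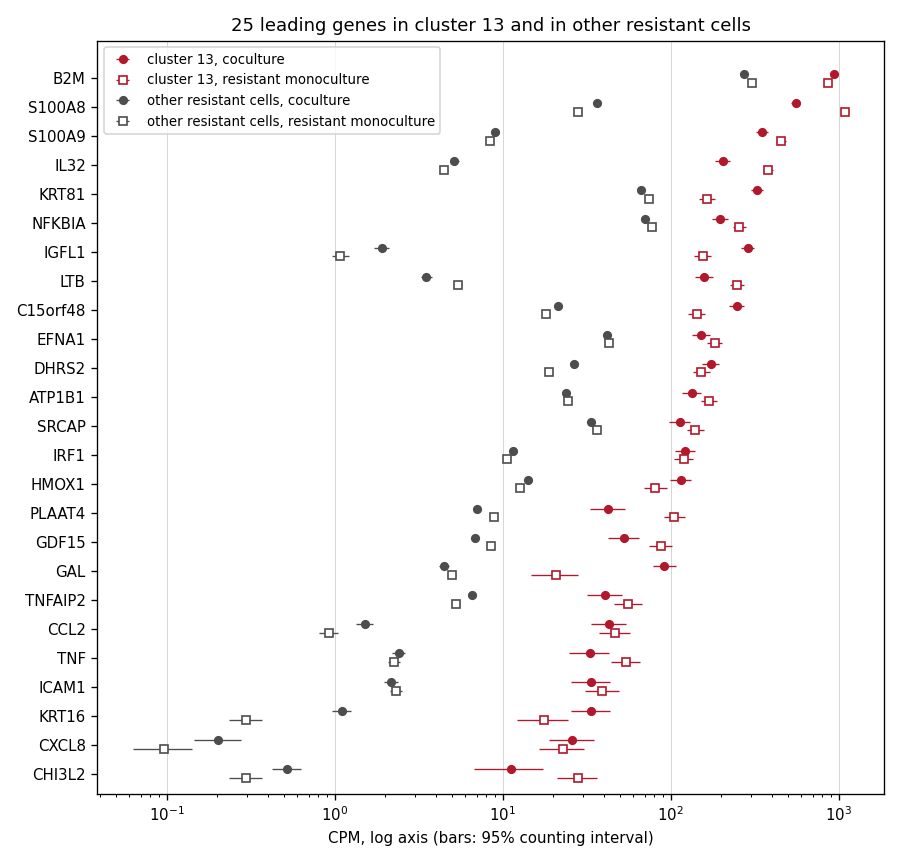
CPM of the 25 leading genes (log axis) in cluster 13 (red) and in the other resistant cells (grey), with filled circles for coculture, open squares for resistant monoculture and bars for the exact Poisson 95% interval, which covers counting error only. In each of the 25 genes, which were chosen by their ratios over these same cells, both red points lie to the right of both grey points. They run from B2M at 940 and 859 CPM down to CHI3L2 at 11.2 and 27.9 CPM.

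IL32, which encodes a proinflammatory cytokine, stood at 204 CPM in the coculture members and 381 CPM in the monoculture members, against 5.15 and 4.45 CPM in the other resistant cells. Both member values were far above both others, the log2 ratio was 5.70, and 83 of 106 members had at least 1 IL32 UMI. LTB, lymphotoxin beta, a TNF family ligand, was at 158 and 248 CPM against 3.50 and 5.43 CPM (log2 ratio 5.20), in 56 members. TNF itself was at 32.9 and 54.2 CPM against 2.41 and 2.25 CPM (log2 ratio 3.77), in 53 members. All 3 were higher in the monoculture members than in the coculture members. Among the chemokines, which attract leukocytes, CCL2 was at 43.0 and 46.5 CPM against 1.51 and 0.922 CPM (log2 ratio 4.40). CXCL8 was at 25.9 and 22.7 CPM against 0.202 and 0.0967 CPM (log2 ratio 4.46), and its 88 UMIs came from 10 members. CXCL8 thus came from fewer members than CCL2, which was seen in 25.

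The NF-kappaB and inflammatory list had 28 genes, of which 18 were counted, and 17 of the 18 were past 2-fold higher in cluster 13 against 2.57% of all genes. Its median log2 ratio was 2.09. It was 2.25 in coculture, 2.57 in monoculture and 2.08 among G1 cells. Of the subunits, RELB was at 39.4 and 63.5 CPM against 7.49 and 8.93 CPM (log2 ratio 2.51), NFKB2 had a ratio of 1.75 and NFKB1 of 1.19. The inhibitor NFKBIA was at 197 and 257 CPM against 70.3 and 77.2 CPM (log2 ratio 1.61), and 104 of 106 members had an NFKBIA UMI. At 5000 UMIs per cell NFKBIA was seen in 63.2% of members and 29.3% of other resistant cells, RELB in 22.6% and 3.99%, and NFKB2 in 17.0% and 6.93%. Among the targets, the adhesion molecule ICAM1 (33.5 and 39.2 CPM against 2.17 and 2.32), the TNF-induced TNFAIP2 (40.6 and 55.8 against 6.58 and 5.29) and the complement factor CFB (11.2 and 7.74 against 0.197 and 0.152) had log2 ratios of 3.53, 2.86 and 3.14. The antioxidant enzyme SOD2 had a ratio of 1.19, the apoptosis inhibitor BIRC3 of 2.13 and the NF-kappaB inhibitor TNFAIP3 of 1.96, the last from 15 UMIs in 8 members. The 1 counted gene not past 2-fold was IER3, an early response gene, at 1832 and 2079 CPM against 1483 and 1733 CPM (log2 ratio 0.27). The cytokines IL6, IL1A and IL1B, the chemokine CXCL2 and LCN2 had no UMI in cluster 13, which allows up to 0.825 CPM each. The list was thus not high throughout.

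Per cell, the list was summed without IER3, which otherwise gave most of its UMIs. This choice was made after the values were seen. At 5000 UMIs per cell the median member had 4 UMIs of the list (quartiles 2 and 6, highest 21), and the median other resistant cell had 1 (quartiles 0 and 1, highest 14). At 4 UMIs or more were 51.9% of members, a share that follows from taking their own median as the level, and 2.15% of other resistant cells (exact interval 1.92 to 2.41%). The members from monoculture had a median of 5 and those from coculture a median of 3. With IER3 the contrast was smaller, with a median of 13 UMIs against 8, and 21.8% of other resistant cells were at or above the members' median. Without IER3, no UMI of the list was seen in 9 members (8.49%). The 2 ranges overlap.

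**Figure D2:**
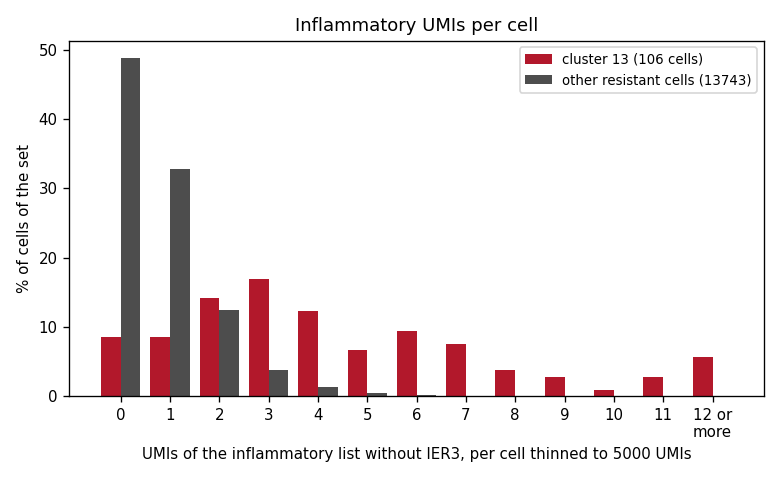
Share of cells (vertical axis, %) by UMIs of the NF-kappaB and inflammatory list without IER3 in each cell thinned to 5000 UMIs (horizontal axis, last bin 12 or more), for the 106 members of cluster 13 (red) and 13743 other resistant cells (grey). The grey bars are highest at 0 UMIs and the red bars spread from 0 to 12 or more, with a median of 4 against 1.

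Antigen presentation was the next list. Of its 19 genes 18 were counted, 10 were past 2-fold higher and 0 lower, against 2.57% and 2.27% of all genes, and the median log2 ratio was 1.19 (0.99 in coculture, 1.33 in monoculture, 1.11 among G1 cells). B2M, the light chain of class I MHC, was at 940 CPM in the coculture members and 859 CPM in the monoculture members against 274 and 305 CPM (log2 ratio 1.62), and at 5000 UMIs per cell 94.3% of members and 71.0% of other resistant cells had a B2M UMI. The heavy chain HLA-B was at 244 and 252 CPM against 92.5 and 92.2 CPM (log2 ratio 1.42), HLA-F had a ratio of 1.25 and HLA-C of 0.85. HLA-E had a ratio of -0.00, at 83.9 CPM in both sets, so the heavy chains were not all higher. The HLA genes are near-identical copies, and how reads were split among them is uncertain. Of the immunoproteasome subunits, PSMB9 was at 48.8 and 68.2 CPM against 6.49 and 8.22 CPM (log2 ratio 2.82), PSMB8 had a ratio of 2.49 and PSMB10 of 0.97. The peptide transporter TAP1 was at 27.1 and 50.6 CPM against 6.68 and 7.28 CPM (log2 ratio 2.34), TAP2 had a ratio of 1.39, and TAPBP, tapasin, which loads the peptides, of 1.35. CALR and PDIA3, general chaperones of the endoplasmic reticulum that also serve this loading, had ratios of -0.15 and 0.03. At 5000 UMIs the median member had 18 UMIs of the list and the median other resistant cell 10.

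The interferon list had a median inside 2-fold, at 0.28 (0.11 in coculture, 0.36 in monoculture). Of 38 counted genes 7 were past 2-fold higher and 1 lower, against 2.57% and 2.27% of all genes. The transcription factor IRF1, which both interferon and TNF are known to induce, was at 122 and 119 CPM against 11.6 and 10.6 CPM (log2 ratio 3.34) and was seen in 75 members. The other 6 past 2-fold were SP100 (1.99), PARP14 (1.87), DTX3L (1.59), DDX58 (1.37), IFIT5 (1.24) and LGALS3BP (1.04). The widely used interferon markers ISG15, IFI6, IFIT1, MX1 and OAS1 had log2 ratios of 0.72, 0.37, -0.36, -0.44 and -0.71, the last 3 from 13, 5 and 1 UMIs. The ratio of IFI6 was -0.65 in coculture and 0.88 in monoculture, so its direction differed between the libraries. No UMI of IFIT3, RSAD2, XAF1, EPSTI1, CMPK2 or TRIM22 was seen in cluster 13. IFIT3, at 1.02 CPM in the other resistant cells, was the 1 gene past 2-fold lower. With no UMI against so low a level, that call lies at the floor and rests on the pseudocount. The median member had 7 UMIs of the list at 5000 UMIs per cell and the median other resistant cell 6, with 6 for the coculture and 8 for the monoculture members.

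The RefSeq sequences of 250 bases before to 50 after each gene's start (GRCh38.p14) were searched on both strands for 2 motifs. The first was the kappaB motif, the site NF-kappaB binds. The second was GAAA, any 2 bases and GAAA again, which is like the interferon-stimulated response element. A kappaB match was in 5.72% of all 27305 promoters and in 6.44% of the 10441 matched genes that were counted. It was in 37 of the 243 matched genes past 2-fold higher (15.2%, exact interval 11.0 to 20.4%) and in 14 of the 240 past 2-fold lower (5.83%). The second motif was in 3.65% of all promoters, 2.65% of the counted genes, 11.5% of the higher genes (7.79 to 16.2%) and 3.33% of the lower ones. These shares are descriptions, and a match is not a bound site. The higher and lower genes were picked by their ratios in these same data, and what sets their levels was not tested. Of the 25 leading genes 18 had an entry, and 6 of them, IL32, LTB, IRF1, B2M, NFKBIA and CHI3L2, held a kappaB match (33.3%, exact interval 13.3 to 59.0%). The second motif was in 1 of the 18, B2M (5.56%, 0.141 to 27.3%). C15orf48, HMOX1, KRT81, CCL2, KRT16, GAL and PLAAT4 were not matched.

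Stretches of 9 promoters follow as examples, chosen after the matches were seen, from the leading genes and from the inflammatory, antigen presentation and interferon lists. They are written 5′ to 3′ on the gene's strand, with the matched bases in capitals. Most hold kappaB matches alone, and B2M, TAP1 and TAPBP hold both motifs.
NFKBIA, chr14:35404806-35404845, minus strand: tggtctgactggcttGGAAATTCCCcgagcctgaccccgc
NFKB1, chr4:102501295-102501334, plus strand: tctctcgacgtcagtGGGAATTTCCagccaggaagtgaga
IL32, chr16:3065289-3065329, plus strand: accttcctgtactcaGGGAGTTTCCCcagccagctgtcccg
LTB, chr6:31582487-31582526, minus strand: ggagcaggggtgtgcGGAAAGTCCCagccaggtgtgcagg
IRF1, chr5:132490799-132490838, minus strand: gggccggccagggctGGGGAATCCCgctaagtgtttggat
HLA-B, chr6:31357331-31357371, minus strand: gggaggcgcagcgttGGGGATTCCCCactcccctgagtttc
B2M, chr15:44711358-44711416, plus strand: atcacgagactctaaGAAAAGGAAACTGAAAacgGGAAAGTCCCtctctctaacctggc
TAP1, chr6:32853752-32853853, minus strand: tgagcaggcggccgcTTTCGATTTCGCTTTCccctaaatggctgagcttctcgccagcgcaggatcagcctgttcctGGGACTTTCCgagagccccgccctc
TAPBP, chr6:33314079-33314149, minus strand: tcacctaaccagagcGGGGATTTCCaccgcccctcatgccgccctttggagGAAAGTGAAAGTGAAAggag

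Genes of calprotectin, keratins and secreted proteins were also among the leading ones. S100A8, a subunit of the calcium-binding dimer calprotectin, was at 555 CPM in the coculture members and 1089 CPM in the monoculture members against 36.4 and 27.9 CPM in other resistant cells (log2 ratio 4.69). Its partner S100A9 was at 351 and 456 CPM against 9.05 and 8.36 CPM (log2 ratio 5.40). Both genes were high in both libraries, and S100A8 was seen in 96 members and S100A9 in 65. IGFL1, a secreted protein of the IGF-like family, was at 288 and 155 CPM against 1.91 and 1.08 CPM (log2 ratio 6.49), and 26 members had an IGFL1 UMI. The hair keratin KRT81 was at 328 and 165 CPM against 66.6 and 73.9 CPM (log2 ratio 1.75), and KRT16, a keratin of stressed squamous epithelium, at 33.5 and 17.6 CPM against 1.10 and 0.297 CPM (log2 ratio 3.99). KRT81 has near-identical neighbours, so its count is uncertain. HMOX1, heme oxygenase 1, was at 115 and 81.1 CPM against 14.1 and 12.6 CPM (log2 ratio 2.78), and GDF15, a stress-induced cytokine, at 52.4 and 87.3 CPM against 6.88 and 8.55 CPM (log2 ratio 3.02). In GRCh37, S100A8 lies at chr1:153362508-153363549, IGFL1 at chr19:46732999-46734500 and IL32 at chr16:3115298-3132193.

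The leading genes were spread very unequally over the 106 members. The 10 deepest members held 14.4% of all UMIs of the cluster. The 10 members highest for each gene held 26.9% of the UMIs of SRCAP, 29.7% of NFKBIA and 32.1% of B2M, but 94.9% of IGFL1, 93.8% of GDF15, 92.3% of KRT16, 85.5% of KRT81 and 82.6% of S100A9. The first 3 were thus held more evenly than the last 5. In the other 96 members IGFL1 was at 12.3 CPM, S100A9 at 78.8 CPM, S100A8 at 331 CPM, KRT81 at 38.9 CPM, GDF15 at 4.87 CPM, IL32 at 176 CPM and B2M at 689 CPM. These levels are lowered by leaving out the highest cells of the same gene, and no such cells were left out of the other resistant cells, so the sets are not compared on them. Members were also ranked by the gene's share of each cell's UMIs. By this ranking IRF1 shared 6 of its 10 highest members with TNF and 6 with EFNA1, and HMOX1 shared 5 with GDF15. These were the largest overlaps of the 300 pairs of leading genes, and the overlap that random sets of members would have was not worked out.

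**Figure D3:**
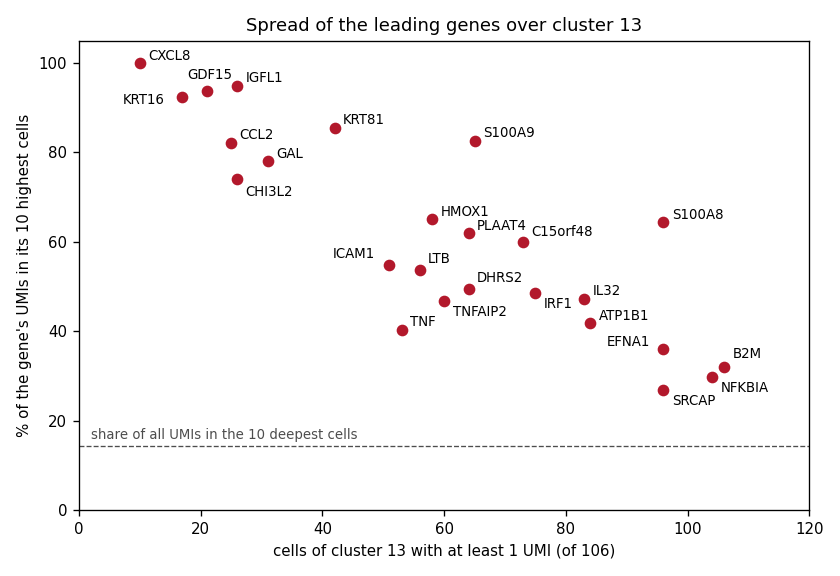
Each point is 1 of the 25 leading genes. The horizontal axis gives how many of the 106 members had at least 1 UMI. The vertical axis gives the share (%) of the gene's UMIs held by its 10 highest members. The dashed line is the 14.4% of all UMIs held by the 10 deepest members. It is not the level of an even spread, because each gene's 10 highest members were picked by that gene. B2M, NFKBIA and SRCAP lie at the lower right, and CXCL8, KRT16, GDF15 and IGFL1 at the upper left, where a few cells hold nearly all UMIs.

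Cluster 13 was almost wholly in G1. By the authors' calls 103 of 106 members were in G1 (97.2%, exact interval 92.0 to 99.4%), 1 in S and 2 in G2M, against 49.5%, 27.6% and 22.9% of the other resistant cells. In coculture 54 of 55 members were in G1 and in monoculture 49 of 51. Calls made anew at 5000 UMIs per cell gave 92.5% and 46.9% in G1. The genes with the lowest ratios at a mean of 50 CPM or more were NUSAP1, TOP2A, HIST1H4C, PTTG1, PCNA, CENPF, ATAD2, UBE2C, BIRC5 and PCLAF, all of replication or mitosis. TOP2A, topoisomerase 2, was at 28.2 and 25.8 CPM against 209 and 158 CPM (log2 ratio -2.69), and PCNA, the replication clamp, at 18.2 and 17.0 CPM against 74.7 and 90.2 CPM (log2 ratio -2.19). All 10, chosen by their ratios over these same cells, were past 2-fold lower in each library. Among G1 cells 1 of them was so, PTTG1, the securin that inhibits separase until anaphase (-1.37).

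Of 41 counted S phase genes 32 were past 2-fold lower, against 2.27% of all genes, with a median of -1.83, and of 54 G2M genes 40 were, with a median of -1.75. Among G1 cells 5 and 1 of them were past 2-fold lower, against 0.657% of all genes, and the medians were -0.51 and -0.43. Both medians were thus closer to 0 when phase was held alike. Among the regulators of G1, the CDK inhibitor CDKN1A (p21) was at 67.1 and 35.6 CPM against 14.8 and 8.96 CPM (log2 ratio 2.04, and 1.86 among G1 cells), in 58 members. The inhibitor CDKN2B (p15), which acts on CDK4 and CDK6, was at 9.41 and 13.9 CPM against 2.26 and 2.41 CPM (log2 ratio 1.94), in 23 members. The drug target CDK4 was at 97.7 and 85.7 CPM against 109 and 111 CPM (-0.27, and 0.05 among G1 cells), and CDK6 had 2 UMIs in the whole cluster. Cyclin D1, CCND1, had a ratio of -0.58 and the retinoblastoma gene RB1 of 0.09. Cyclin E2, CCNE2, had 2 UMIs in cluster 13 and a ratio of -2.70, which was -0.52 among G1 cells, inside 2-fold.

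**Figure D4:**
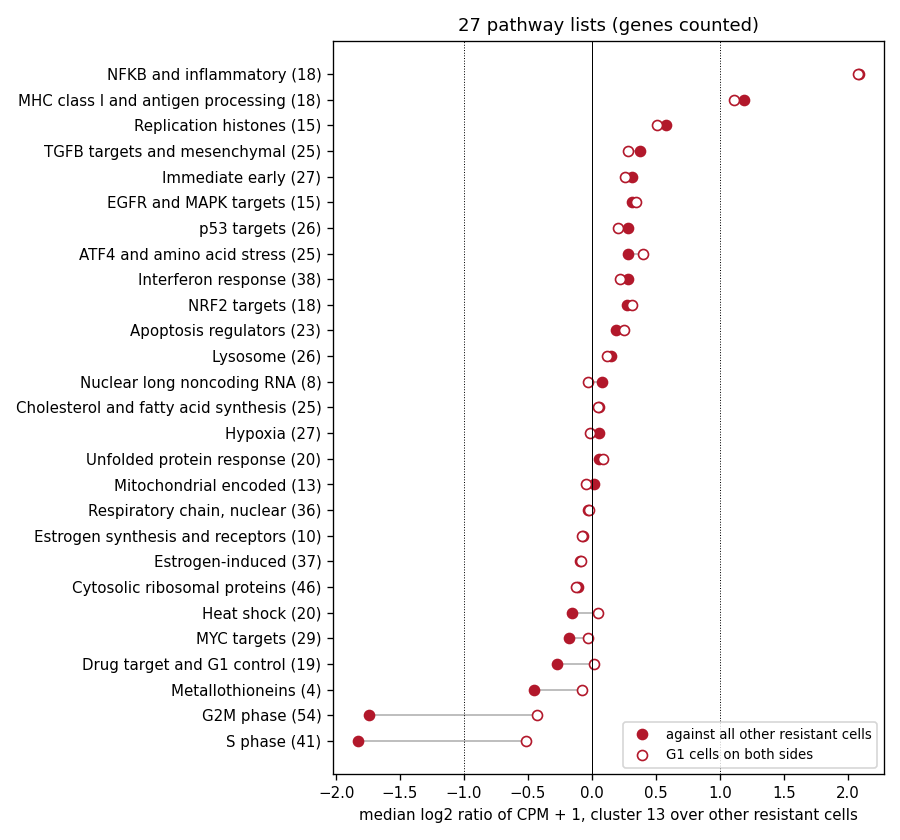
Median log2 ratio of CPM + 1 (horizontal axis), cluster 13 over other resistant cells, for 27 pathway lists with the number of genes counted in brackets. Filled points compare all cells and open points G1 cells, and dotted lines mark 2-fold; the NF-kappaB (2.09) and class I MHC (1.19) lists lie past 2-fold on both, while the S phase (-1.83) and G2M (-1.75) lists move inside 2-fold among G1 cells.

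Of the 27 pathway lists no others had a median past 2-fold. Single genes in them did, against 2.57% of all genes higher and 2.27% lower. Of 26 counted p53 targets 6 were past 2-fold higher and 1 lower, with a median of 0.28, and besides GDF15 and CDKN1A these were the death receptor TNFRSF10B (1.57), BBC3 (1.15), GADD45A (1.04) and TP53INP1 (1.02), whereas MDM2, the p53 inhibitor, had a ratio of -0.15. Of 18 NRF2 targets 4 were past 2-fold higher with a median of 0.27. FTH1, the ferritin heavy chain that stores iron, was the most abundant of these, at 3976 and 3997 CPM against 1381 and 1607 CPM (log2 ratio 1.40). At 5000 UMIs per cell it was seen in 100% of members and 99.3% of other resistant cells. Of 25 genes of the ATF4 and amino acid stress list 3 were past 2-fold higher, among them DDIT3 (CHOP), at 52.4 and 31.5 CPM against 12 and 10.3 CPM (log2 ratio 1.81). The autophagy receptor SQSTM1 had a ratio of 1.24 and the lysosomal glycoprotein GPNMB, with 43 UMIs, of 2.36. Of the early response genes, KLF2, a transcription factor, was lower at 30 and 17.6 CPM against 69.4 and 100.3 CPM (log2 ratio -1.85, and -1.82 among G1 cells). The histone transcript HIST1H4H was at 59.4 and 35.1 CPM against 13 and 8.40 CPM (log2 ratio 2.06), while HIST1H4C had a ratio of -2.57. Histone genes are near-identical copies, and these counts are uncertain.

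Most genes of estrogen synthesis and response were inside 2-fold of the other cells, but the estrogen-induced list summed lower. HSD17B1, which converts estrone to the more active estradiol, was at 121 and 91.4 CPM against 37.4 and 39.1 CPM (log2 ratio 1.43, and 1.06 among G1 cells). It was seen in 77 members, and its 10 highest members held 50.9% of its UMIs. Against cluster 0, the most similar cluster, which had 54.2 CPM, the HSD17B1 ratio was 0.945, inside 2-fold. Against clusters 3 and 9 it was 2.14 and 1.01. HSD17B8, which acts in the other direction, was at 22.9 and 51.6 CPM against 35.3 and 45.4 CPM (-0.10). ESR1, the estrogen receptor, had a ratio of -0.25, its target PGR of 0.16, and the aromatase gene CYP19A1 no UMI in cluster 13. The list of estrogen-induced genes had a median of -0.09, with 1 gene past 2-fold higher and 2 lower of 37, against 2.57% and 2.27% of all genes. In it 17 of the 37 genes were higher, so the lower sum was not shared by all of them. The sum, in which abundant genes weigh most, was 7794 CPM (exact Poisson interval 7703 to 7885) against 10307 CPM. By library it was 7569 against 10736 CPM in coculture and 7991 against 9992 CPM in monoculture.

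Luminal markers were close to those of the other resistant cells, and squamous markers were not. Of 19 counted luminal markers none was past 2-fold either way, with a median of -0.21. Keratins KRT8, KRT18 and KRT19 were at 2510, 4412 and 2967 CPM against 1875, 3174 and 2943 CPM. Of the 14 immune markers, 8 had no UMI in cluster 13, among them PTPRC, which encodes CD45, the T cell genes CD3D and CD3E, MS4A1 and LYZ, and the list summed to 10.7 CPM (exact Poisson interval 7.63 to 14.7) against 2.41 CPM (2.27 to 2.55) in the other resistant cells. Of the 5 counted 2, CD74 and CD14, were past 2-fold higher, and their part in the results was not tested. CD74 had 17 UMIs in 8 members. The squamous list summed to 1594 CPM against 310.2 CPM and had a median log2 ratio of 2.07, which was 3.69 over 6 genes in coculture and 1.13 over 7 in monoculture. Most of its 5798 UMIs were the calprotectin genes described above, S100A8 with 3053 and S100A9 with 1479. Of its 8 counted genes 5 were past 2-fold higher, against 2.57% of all genes (S100A9, S100A8, KRT16, S100A7 and SPRR3, the last 2 with 27 and 8 UMIs), but SPRR1A, SPRR1B, SPRR2A, IVL, KRT4 and CALML3 had none. Of 14 basal and myoepithelial markers 6 were counted, with 1 past 2-fold higher and 1 lower, against 2.57% and 2.27% of all genes. The list was near the floor in both sets, at 4.12 CPM against 3.76 CPM. KRT5, KRT6A and TP63 were among its 10 genes with no UMI in cluster 13. Medians of the genes of each chromosome ran from -0.04 to 0.09.

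Clusters 0 and 3 were most like cluster 13. Over 2293 genes at 50 CPM or more, the root mean square log2 difference was 0.299 to the resistant cells of cluster 0 and 0.359 to those of cluster 3. Cluster 9 was next at 0.368, and is described because its class I MHC genes were as high, which was seen in the data first. Cluster 0, with 5772 resistant cells of which 82.0% were in G1, differed from it in the inflammatory and antigen presentation lists too. Against it 322 of 12304 genes (2.62%) were past 2-fold higher in cluster 13 and 97 (0.788%) lower. Of 17 NF-kappaB genes 16 and of 18 class I MHC genes 10 were past 2-fold higher, with medians of 2.18 and 1.14. Of 32 interferon genes 11 were past 2-fold higher and 0 lower, with a median of 0.51. The S phase and G2M medians were -0.63 and -0.53. Against the 96 resistant cells of cluster 3, 134 of 7761 genes (1.73%) were past 2-fold higher and 118 (1.52%) lower. Among them 10 of 12 NF-kappaB genes and 8 of 16 class I MHC genes were higher. Genes needed 50 UMIs over both clusters together. CXCL8, at 0.068 CPM in cluster 0 and 0 CPM in cluster 3, was counted through cluster 13. The NF-kappaB counts against both clusters are thus partly set by this minimum.

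Cluster 9 and cluster 13 had class I MHC genes in common and other genes apart. Against the 175 resistant cells of cluster 9, 133 of 8474 genes (1.57%) were past 2-fold higher in cluster 13 and 213 (2.51%) lower. The class I MHC list had a median of -0.09 with 0 of 16 genes past 2-fold, and B2M was at 896 CPM in cluster 13 and 948 CPM in cluster 9. In the interferon list 32 of 37 genes were past 2-fold lower in cluster 13, with a median of -2.64. Against cluster 3 only 18 genes of this list reached the minimum of 50 UMIs over both clusters. Part of the 37 thus passed through cluster 9, where they were high, so the count and median are partly set by that minimum. The summed list, which needs no minimum, was at 1481 CPM against 5545 CPM. Cluster 9 had fewer cells in G1 (64.6%), and 21 of 34 S phase genes and 34 of 49 G2M genes were also past 2-fold lower in cluster 13, with medians of -1.51 and -1.34. In the NF-kappaB list 11 of 13 genes were past 2-fold higher, with a median of 2.07. CXCL8 and CCL2, at 0.355 and 1.42 CPM in cluster 9, were counted through their UMIs in cluster 13. These values too are thus partly set by the minimum. The summed list without IER3 was at 968 CPM in cluster 13, 207 CPM in cluster 9 and 398 CPM in the 24 resistant cells of cluster 8, the next highest. With IER3 cluster 13 was again highest, at 2931 CPM, but the order below it changed. Clusters 5, 10, 1 and 9 came next, at 2051, 2035, 2031 and 2024 CPM. Cluster 8 was lowest of the 12 clusters with at least 20 resistant cells, at 1265 CPM. PLAAT4, at 75.9 CPM in cluster 13 and 49.2 CPM in cluster 9, and KRT81, at 241 and 191 CPM, were leading genes that cluster 9 nearly shared.

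**Figure D5:**
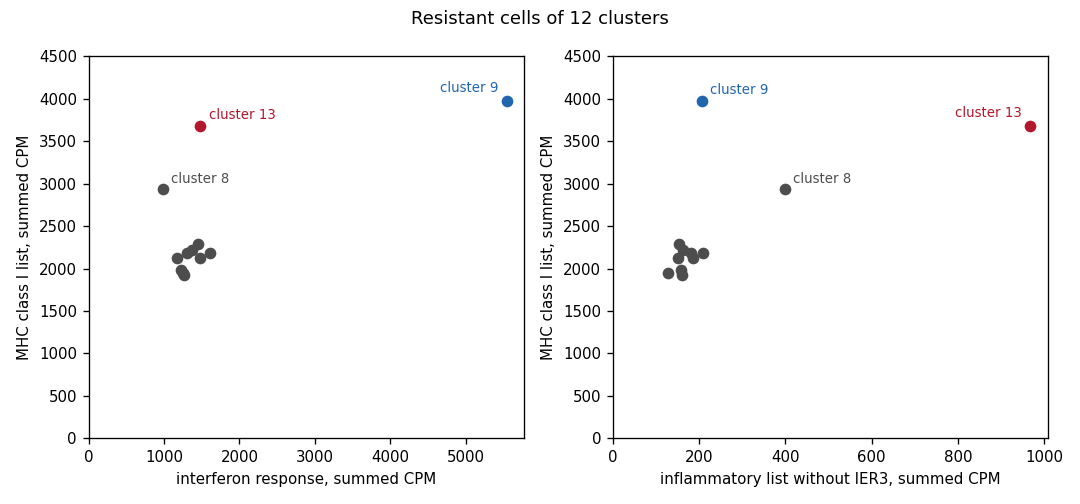
Summed CPM of the class I MHC list (vertical axes) against that of the interferon list (left) and of the NF-kappaB and inflammatory list without IER3 (right) in the resistant cells of 12 clusters with at least 20 such cells. Clusters 13 (red, 3682 CPM) and 9 (blue, 3980 CPM) are the highest on the vertical axes; cluster 9 stands apart at 5545 CPM of interferon genes and cluster 13 at 968 CPM of inflammatory genes.

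Between the libraries, the 55 members from coculture were compared with the 51 from monoculture. Of 5746 genes 75 (1.31%) were past 2-fold higher in the coculture members and 22 (0.383%) lower, and of the same genes 0 and 0 were past 2-fold in the other resistant cells, where many more cells were summed. TM4SF1, a small membrane protein, and the neuropeptide GAL led, and were named after their values were seen. TM4SF1 was at 95.3 and 20.7 CPM in coculture and monoculture members (log2 ratio 2.15) and at 19.0 and 18.7 CPM in the other resistant cells. Its 10 highest members held 79.7% of its UMIs. GAL was at 91.8 and 20.7 CPM against 4.49 and 4.98 CPM, and 8 of its 10 highest members came from coculture. MUCL1, a small mucin also named after its values were seen, was lower in the coculture members, at 169 against 532 CPM, where the other resistant cells had 512 and 294 CPM. The NF-kappaB list had a median of -0.42 over 12 genes, coculture over monoculture, and 0.00 in the other resistant cells. With 1 library each, culture and library cannot be told apart.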

How the data were processed

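Single-cell RNA was measured in 3 libraries, 1 per condition, of which coculture and resistant monoculture hold the resistant cells. The authors counted UMIs per gene and barcode with Cell Ranger 3.0.2 on GRCh37 and deposited these counts without normalization. The authors' annotation, made with Seurat, gives the phase, cluster, transgene class and population of each kept cell, with its S and G2M score and the percent of its UMIs on mitochondrial genes. Cells with 3000 to 7000 genes, 2000 to 60000 UMIs and under 30% mitochondrial UMIs were kept by the authors, who state a transgene minimum of 2 UMIs that part of the annotated cells do not meet. Of its columns, 8 were left unused.

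Counts of rows with no gene symbol (0.571% of UMIs) were left out, and UMIs were summed over the 106 members (3636464 UMIs) and the other resistant cells (466887214). Log2 ratios of CPM used a pseudocount of 1 CPM and a minimum of 50 UMIs, and past 2-fold means an absolute log2 ratio of at least 1. Poisson and binomial intervals are exact, at 95%, and cover counting error only. A gene with no UMI in a set was given a limit of 3 counts. Cells were thinned to 5000 UMIs without replacement. The authors state that they took out doublets predicted by scrublet at a score limit of 0.25. All barcodes of each library within the gene, UMI and mitochondrial limits, annotated or not, were scored anew with scrublet in scanpy 1.11.5. None were removed. For scaling alone, edgeR 4.0.16 (R 4.3.3) gave TMM factors. Sums, intervals and thinning were computed in Python 3.11.15 with scipy 1.17.1 and numpy 2.4.6. The ratios and intervals were tested on simulated data.

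Genes named are the 15 highest and 10 lowest ratios at a mean of 50 CPM or more, the 10 highest at 10 to 50 CPM with at least 20 member UMIs, the 3 largest of each pathway list with a gene past 2-fold, the genes the study names, and markers. Other members of the lists are given as examples chosen after their values were seen. There were 27 pathway and 10 marker lists, and 15 of their genes were not matched. Some members of the lists are not reported here. The members and the lists were chosen with earlier results of these data known. Gene positions are from GENCODE lifted to GRCh37, and promoters from RefSeq on GRCh38.p14, matched by symbol. The study's MAST test, which takes cells as replicates, was not run. Alternatives covered scaling, pseudocount, count minimum, library, phase, depth, doublets and the transgene limit.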

Additional observations from a re-analysis of the deposited data

Results flagged for a closer look

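Counted barcodes that the annotation left out were set apart because no comparison above used them. Their mean UMIs of the NF-kappaB and inflammatory list without IER3, at 5000 UMIs per barcode, ran from 0.784 to 1.14 by set. That was near the 0.790 of the other annotated resistant cells and far under the 5.04 of cluster 13. A small share of these barcodes had as many UMIs of the list as the median member. At 5000 UMIs per cell, in a separate random draw in which 51.9% of cluster 13 and 1.99% of the other annotated resistant cells had at least 4 UMIs of the list (the members' own median), 3.63% of 5699 coculture barcodes with a mitochondrial share of 30% or more reached that level. Of the 4766 coculture barcodes with a lower mitochondrial share, 3.94% did. In resistant monoculture the shares were 3.07% of 1952 barcodes and 2.75% of 982, and in sensitive monoculture 2.78% of 3779 and 6.44% of 264. Their lineage is not given by the annotation, and what these barcodes are was not tested.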

How the results depend on the processing

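With 338 genes past 2-fold higher, 298 lower and 5 list medians past 2-fold in the comparison reported, a pseudocount of 0.1 CPM gave 791 higher, 1039 lower and an S phase median of -2.02, and one of 10 CPM gave 68, 97, medians of -0.90 for S phase, -1.01 for G2M and 1.16 for the NF-kappaB list, and 2 lists. A minimum mean of 10 CPM left 119 and 144 genes, with fewer genes tested. Thinning every cell to 5000 UMIs gave 572 and 1276, with fewer UMIs behind each gene. Weighting the other resistant cells to the members' library and phase gave 90 lower genes, medians of -0.54 (S phase) and -0.59 (G2M), and 3 lists. G1 cells alone gave 82 lower genes and medians of -0.51 and -0.43. Each library alone gave 454 (coculture) and 493 (monoculture) lower genes, from fewer cells. Counting cells with 2 or more transgene UMIs put cluster 13 at 0.464% of the resistant cells of monoculture in place of 0.675%, and at 0.712% in coculture. The class I MHC median ran from 0.73 at a pseudocount of 10 CPM, under 2-fold, to 1.36 at 0.1 CPM. Without the 10 members of most NF-kappaB list UMIs, an alternative added after the data were seen, 317 genes were past 2-fold higher and the NF-kappaB median was 1.93. SPARC, whose 7 UMIs all came from 1 cell among those 10, went from 1.28 to -0.27. Of the 72 genes named by rule and past 2-fold, 71 kept their direction and 38 stayed past 2-fold under each alternative that gave them a value, at most 15 for a gene. No paired analysis was possible because each condition has 1 library and no test was run. A member sum of 3636464 UMIs limits what can be seen, since 3 counts are 0.825 CPM.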

Other observations

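Several leading genes belong to none of the lists. ATP1B1, a subunit of the sodium-potassium pump, was at 134 CPM in the coculture members and 169 CPM in the monoculture members, against 23.7 and 24.6 CPM in the other resistant cells (log2 ratio 2.60). EFNA1, an ephrin ligand, was at 152 and 183 CPM against 41.9 and 43.1 CPM (log2 ratio 1.96). Each was seen in most members, 84 and 96 of 106. DHRS2, a short-chain dehydrogenase, was at 173 and 152 CPM against 26.7 and 18.9 CPM (log2 ratio 2.81). SRCAP, a chromatin remodeller, was at 114 and 140 CPM against 33.4 and 36.2 CPM (log2 ratio 1.84), and of the leading genes its UMIs were the least concentrated in few cells.

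The inflammatory list was not limited to resistant cells. At 5000 UMIs per cell, 3.21% of 2059 sensitive cells in coculture (exact interval 2.49 to 4.06%) and 4.24% of 3329 in sensitive monoculture (3.58 to 4.98%) had at least 4 UMIs of the list without IER3, the median of cluster 13, with up to 19 and 33 in 1 cell. Of the 2 sensitive members of cluster 13, the one from coculture had 4 UMIs and the one from monoculture 1 UMI.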
